A study of Mus musculus with 4 samples.

Results

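The genes examined were 10 receptors of the tumor necrosis factor (TNF) receptor family, Tnfrsf4, which encodes OX40, with Tnfrsf9 (4-1BB), Tnfrsf18 (GITR), Tnfrsf8 (CD30), Cd27, Tnfrsf14 (HVEM), Tnfrsf1a (TNF receptor 1), Tnfrsf1b (TNF receptor 2), Fas and Tnfrsf25 (DR3). They were chosen by name, with earlier results of these data known. Each was read from every probe set that the platform annotation gives to that gene alone. This gave 10 probe sets, 1 per gene, among the 22180 genes of the arrays, and 1 probe set shared by Tnfrsf18 and the predicted gene Gm16008 was left out. The RNA came from regulatory T-cells (Tregs) of the NOD mouse strain, which becomes diabetic through autoimmunity, with no allele or transgene named in the labels. All Tregs had been kept for 5 days with dendritic cells grown from bone marrow in GM-CSF (G-BMDCs), and no drug or soluble ligand is named for these cultures. The groups were sorted by a fluorescent dye (CFSE in the labels, Cell Trace Violet in the methods) that is diluted at each division and that resting Tregs had retained. Each group had 2 samples, each on 1 array. The culture of the arrays is known from the sample labels alone. The age of the mice, the surface markers used at the sort and whether both samples of each group had cultures of their own are not given in the sources used here, so the spread between replicates may be technical.

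TNF receptors are membrane proteins that cluster when a ligand of the TNF family, usually a trimer, binds them. Most of those studied here, OX40, 4-1BB, GITR, CD27, CD30, HVEM and TNF receptor 2 among them, then bind TRAF adaptors and switch on NF-κB, which in T-cells favors survival and growth. Fas, DR3 and TNF receptor 1 carry a death domain and can bind other adaptors, by which Fas in particular starts apoptosis. Tregs are known for holding OX40, GITR and TNF receptor 2 at the surface without prior activation, and 4-1BB is known as a receptor that activated T-cells induce.

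The values are log2 expression values per probe set, and the 2 arrays of a group were alike (Pearson's r across genes 0.980 and 0.981 within groups, 0.797 to 0.819 between them, where genes are not independent replicates). The median over all probe sets was 6.27 in each resting array and 5.995 and 5.975 in the proliferating arrays. All 8 T-cell and Treg markers were higher in proliferating Tregs, Foxp3 3.67-fold, Il2ra 7.95-fold and Cd3e 2.78-fold, although Foxp3 had a log2 fold change of -0.0939 relative to the Cd3 genes. The proliferation gene Mki67 was 4.92-fold higher there. Markers of other cells moved with the groups as well. Each of 10 neutrophil markers and each of 8 B-cell markers measured was lower in the proliferating arrays. Their summed signal, on the log2 scale, was 13.47 to 13.62 in resting against 9.32 to 9.46 in proliferating arrays for neutrophil markers and 11.84 to 11.94 against 9.14 to 9.22 for B-cell markers. S100a9, a neutrophil calprotectin gene, was 40.4-fold lower and Cr2, a B-cell complement receptor gene, was 11.5-fold lower in proliferating Tregs. Of 15 measured dendritic and myeloid markers 8 were higher and 3 lower (summed log2 signal 11.73 to 11.74 against 12.57 to 12.72), among them the lectin gene Clec4n, 18.4-fold higher, and the MHC class II gene H2-Ab1, 5.90-fold lower. Of 8 CD8 T-cell and NK-cell markers 2 were higher (Nkg7 2.09-fold) and 3 lower (Cd8a 2.78-fold), with a summed log2 signal of 10.44 to 10.46 against 10.34 to 10.46. Both erythroid markers measured were lower, Klf1 2.01-fold, with a summed log2 signal of 7.97 to 8.03 against 7.12 to 7.22. The part of such cells in the results below was not tested. In bulk RNA like this, fewer cells of a type and less RNA per cell cannot be told apart.

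Of the 10 receptor genes, 8 were higher in proliferating Tregs, 2 did not pass the test and none was lower (limma's moderated test with Benjamini-Hochberg adjustment over all 22180 genes, adjusted p under 0.05), while relative to housekeeping genes 4 were higher and 5 lower. At an unadjusted p under 0.05 the counts were also 8 higher and 0 lower, and the methods' t-test with adjustment gave 6 higher and 0 lower. Among all genes 25.6% were higher and 34.5% lower by limma's test, 60.1% in all. Of the 22180 genes, 922 were higher and 19605 lower relative to housekeeping genes. By the methods' t-test with adjustment, 2781 were higher and 1531 lower. The receptor counts were not tested against these backgrounds. The median log2 fold change of the 10 genes was 0.96, against -0.17 for all genes. The groups did not overlap for 9 of the 10, as for 81.2% of all genes, so that count is near the background. The changes fell into a group of 4 genes that were 6.97-fold to 12.3-fold higher, a gene in between, and 5 genes whose log2 fold changes lay between -0.26 and 0.68.

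**Figure D1:**
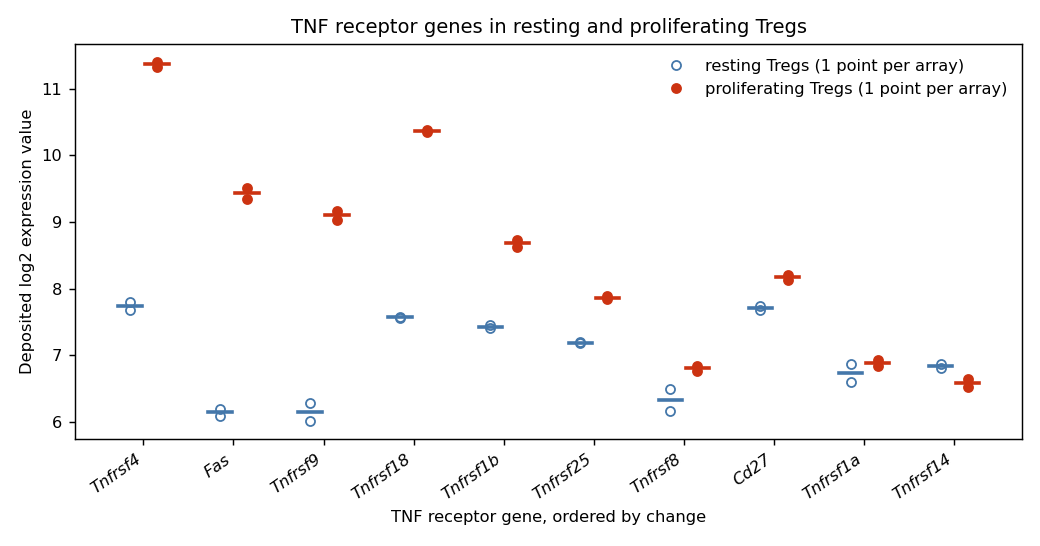
Deposited log2 expression value (vertical axis) of the 10 TNF receptor genes, ordered by change, in resting (open circles) and proliferating Tregs (filled circles), with 1 point per array and a bar at the mean of 2 arrays. Tnfrsf4, Fas, Tnfrsf9 and Tnfrsf18 are separated by at least 2.80 between the group means, and the points of Tnfrsf1a overlap.

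The gene of OX40, the receptor for OX40L and the one whose ligand the study used to expand Tregs, changed the most of the 10. Tnfrsf4 was at 7.81 and 7.68 in the resting arrays and at 11.33 and 11.40 in the proliferating arrays (log2 values). Both proliferating arrays lay far above both resting ones. The rise was 12.3-fold, from 7.74 ± 0.09 to 11.37 ± 0.05 (mean log2 value and SD), or 3.62 on the log2 scale (standard error 0.13, adjusted p = 7.67e-06), and it ranked 17 from the top among the 22180 genes.

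GITR and 4-1BB are co-stimulatory receptors of the same kind. Tnfrsf18, the GITR gene, was at 7.57 and 7.56 in resting Tregs and at 10.35 and 10.39 in proliferating Tregs, 6.97-fold higher (7.57 ± 0.00827 against 10.37 ± 0.0220, SD over 2 arrays each, adjusted p = 1.02e-05). Tnfrsf9, the 4-1BB gene, was at 6.29 and 6.01 against 9.03 and 9.17. In both genes the groups stood wide apart. The arrays within a group were close for Tnfrsf18, while the resting arrays of Tnfrsf9 had an SD of 0.20. The change of Tnfrsf9 was 7.71-fold, or 2.95 on the log2 scale (standard error 0.15, adjusted p = 1.34e-05). Tnfrsf9 and Tnfrsf18 ranked 103 and 128 among all genes.

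CD27, CD30 and HVEM also bind TRAF adaptors in T-cells, and their genes changed far less. CD27 serves the survival of naive and memory T-cells, and its gene was at 7.74 and 7.68 in resting and at 8.13 and 8.21 in proliferating Tregs, a rise of 1.38-fold (adjusted p = 0.0161). CD30 is a receptor of activated lymphocytes, and Tnfrsf8 was at 6.17 and 6.50 against 6.83 and 6.77, a rise of 1.38-fold with a lower resting replicate 1 (adjusted p = 0.0298). For these 2 genes the groups did not overlap, but the step between them was small. The call on Tnfrsf8 was lost without resting replicate 1 (adjusted p = 0.186) and without proliferating replicate 1 (adjusted p = 0.0582). That on Cd27 was lost without resting replicate 1 (adjusted p = 0.0687) and without resting replicate 2 (adjusted p = 0.0910), and after quantile normalization its log2 fold change was 0.0118. HVEM binds the ligand LIGHT and also the inhibitory receptor BTLA. Tnfrsf14 was at 6.87 and 6.82 in resting and at 6.64 and 6.52 in proliferating Tregs, the single gene of the 10 with a mean below that of resting Tregs, and it did not pass the test (log2 fold change -0.26, adjusted p = 0.117).

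Of the 2 receptors for TNF, the gene of one passed the test, and the difference between them was not tested. Tnfrsf1b, the gene of TNF receptor 2, which is found mostly on lymphoid and myeloid cells, was at 7.41 and 7.45 against 8.63 and 8.73, and rose 2.37-fold, or 1.25 on the log2 scale (standard error 0.13, adjusted p = 1.79e-04). Tnfrsf1a, the gene of the broadly expressed TNF receptor 1, was at 6.88 and 6.61 against 6.94 and 6.84. Its groups overlapped, since resting replicate 1 lay above proliferating replicate 2 (log2 fold change 0.15, standard error 0.14, adjusted p = 0.405). After median centring Tnfrsf1a passed as higher (log2 fold change 0.43, adjusted p = 0.0384), which made 9 of the 10 receptors higher.

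Both genes of the death receptors Fas and DR3 rose. Fas, the receptor of Fas ligand and a gene that T-cells raise on activation, was at 6.09 and 6.20 in resting and at 9.51 and 9.35 in proliferating Tregs. This was a rise of 9.74-fold, from 6.15 ± 0.07 to 9.43 ± 0.11 (mean log2 value ± SD over 2 arrays, adjusted p = 8.32e-06), the second of the 10 in size. Tnfrsf25, the gene of DR3, a co-stimulatory death domain receptor of T-cells, was at 7.20 and 7.18 against 7.88 and 7.85. It rose 1.60-fold with little spread within either group (log2 fold change 0.68, adjusted p = 0.00288).

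The order of the changes was set by a few wide steps. Neighbors within Tnfrsf4, Fas, Tnfrsf9 and Tnfrsf18 differed by 0.34, 0.34 and 0.15 on the log2 scale, each less than 2 of its combined standard errors (0.19, 0.20 and 0.19). The step from Tnfrsf18 to Tnfrsf1b was 1.56 with a combined standard error of 0.18, and that from Tnfrsf1b to Tnfrsf25 was 0.57 with 0.18. Tnfrsf25, Tnfrsf8, Cd27 and Tnfrsf1a followed in steps of 0.21, 0.00964 and 0.31, none of them beyond 2 combined standard errors. The last step, from Tnfrsf1a to Tnfrsf14, was 0.40 with 0.19, or 2.09 combined standard errors. Each gene was also expressed within its array as a difference from Tnfrsf4. This removes a shift shared by all genes of an array, but not unequal spread between arrays. On this scale the change of Fas was 0.34 below that of Tnfrsf4 and did not pass (standard error 0.17, adjusted p = 0.0670 over 22179 genes). The other 8 receptors changed less than Tnfrsf4, Tnfrsf9 by 0.67 (adjusted p = 0.00108), Tnfrsf18 by 0.82 (adjusted p = 1.95e-04) and the rest by 2.38 to 3.88. These differences were not tested after quantile normalization. The log2 fold changes were then 3.12 for both Tnfrsf4 and Fas, 2.79 for Tnfrsf9 and 2.32 for Tnfrsf18. A change below that of Tnfrsf4 was called for 99.8% of all genes, so the count of 8 of 9 sets nothing apart.

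The scaling of the arrays split the 10 genes. All 9 measured housekeeping genes and the 3 Cd3 genes of the T-cell receptor complex (Cd3d, Cd3e and Cd3g) were themselves higher in proliferating Tregs, so centring on them lowered every fold change, and the median over all genes moved from -0.17 to -1.59 and -2.14. Tnfrsf4, Fas, Tnfrsf9 and Tnfrsf18 stayed higher and past the test in both cases. Their log2 fold changes were 2.20, 1.86, 1.53 and 1.38 relative to the housekeeping genes, and 1.65, 1.31, 0.98 and 0.83 relative to the Cd3 genes. Tnfrsf1b reversed to -0.18 and -0.72, the former not past the test. Cd27, Tnfrsf8, Tnfrsf25, Tnfrsf1a and Tnfrsf14 were lower than the reference genes, at -1.68 to -0.75 and at -2.23 to -1.29. Of the genes past the test, 42.7% were higher with the scaling as deposited, against 4.49% and 1.54% with these references. The mean of the housekeeping genes rested heavily on Hprt and Pgk1, which rose by 3.52 and 3.43 on the log2 scale. The other housekeeping genes rose by 0.35 (B2m) to 1.49 (Ywhaz). As deposited, Tnfrsf1b rose by 1.25, more than each of these others except Ywhaz. Tnfrsf25, Tnfrsf8 and Cd27 rose by 0.68, 0.47 and 0.46, more than Gusb (0.40) and B2m only. Tnfrsf1a, at 0.15, rose less than all of them. The centring was not repeated without Hprt and Pgk1, so whether the reversals hold without them was not tested.

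**Figure D2:**
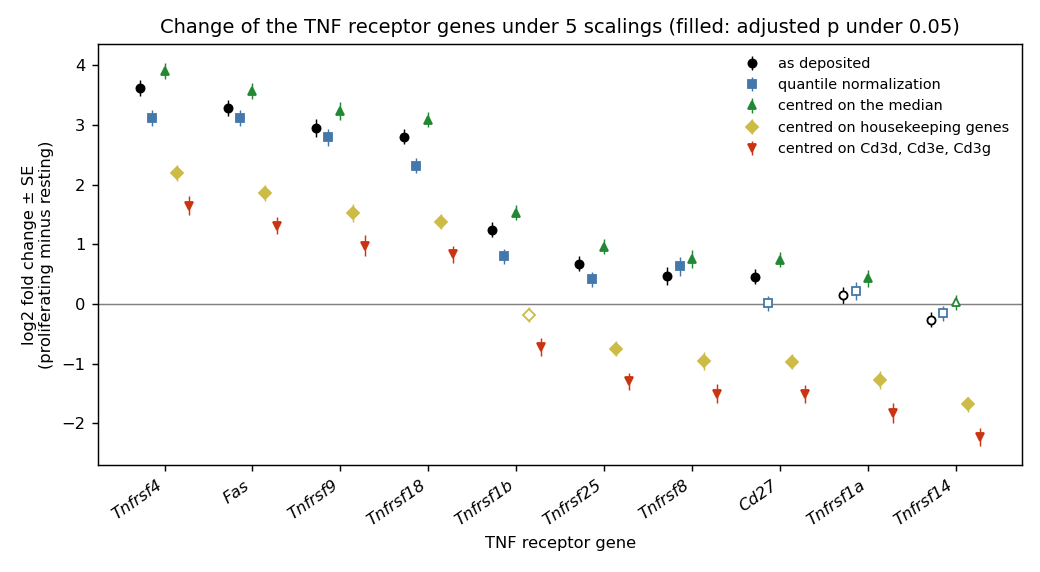
log2 fold change (proliferating minus resting, error bars are standard errors) of the 10 TNF receptor genes under 5 scalings, with filled symbols past an adjusted p of 0.05. Tnfrsf4, Fas, Tnfrsf9 and Tnfrsf18 lie above 0 under each, between 0.83 and 3.91, and each of the other 6 lies above 0 under some scalings and below 0 under others.

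The sequences before the start sites of the 4 genes with the widest change are given because these genes moved together, and because the study used inhibitors of NF-κB and STAT5 in CD4+ T-cell cultures. They are RefSeq sequences of GRCm38.p6, and all 10 genes were matched by symbol, with 12 windows in all since Tnfrsf9 and Tnfrsf25 have 2 start sites each. In the 250 bases before each start, on both strands, the NF-κB consensus, the AP-1 motif TGANTCA and the STAT motif TTCNNNGAA were searched. They occur in 7.25%, 6.75% and 7.02% of all 32851 such windows. Positions of matches are counted back from the start site of the window. Each stretch runs 5′ to 3′ on the + strand and ends before the first annotated base of the gene, except the second of Tnfrsf9, which lies inside the span of the gene before its downstream start. Capitals mark motifs. The positions are chr4:156013445-156013594 for Tnfrsf4, chr19:34290409-34290646 for Fas, chr4:150927749-150927998 for Tnfrsf9 and chr4:156026072-156026321 for Tnfrsf18.
Tnfrsf4: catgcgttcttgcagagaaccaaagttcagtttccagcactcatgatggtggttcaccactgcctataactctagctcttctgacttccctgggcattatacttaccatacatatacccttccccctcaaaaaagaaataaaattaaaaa
Fas: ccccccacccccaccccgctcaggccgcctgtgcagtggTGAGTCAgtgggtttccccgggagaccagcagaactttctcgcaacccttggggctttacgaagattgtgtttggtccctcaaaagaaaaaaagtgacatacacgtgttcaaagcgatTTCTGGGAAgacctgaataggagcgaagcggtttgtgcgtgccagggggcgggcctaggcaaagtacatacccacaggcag
Tnfrsf9: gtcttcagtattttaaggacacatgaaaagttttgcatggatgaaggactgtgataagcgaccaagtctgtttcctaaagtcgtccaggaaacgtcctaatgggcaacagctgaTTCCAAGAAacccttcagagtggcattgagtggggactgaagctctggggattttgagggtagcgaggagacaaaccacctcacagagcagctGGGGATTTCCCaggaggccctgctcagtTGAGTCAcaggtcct
Tnfrsf18: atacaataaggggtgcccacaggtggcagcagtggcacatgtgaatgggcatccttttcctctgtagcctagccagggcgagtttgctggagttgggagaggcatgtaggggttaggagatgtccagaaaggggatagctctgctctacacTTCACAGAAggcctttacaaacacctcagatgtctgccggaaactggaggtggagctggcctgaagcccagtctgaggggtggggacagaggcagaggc
The Tnfrsf9 window holds all 3 motifs, a STAT match at position -136 from the start, the NF-κB consensus in 2 matches that overlap in 1 run, and an AP-1 match at -15. Fas has an AP-1 match at -211 and a STAT match at -93, and Tnfrsf18 a STAT match at -99. None of the 3 motifs was in the window of Tnfrsf4, nor in that of the upstream start of Tnfrsf9. Among the 10 genes, 3 had the NF-κB consensus (Tnfrsf9, Tnfrsf8 and Tnfrsf25), 3 the AP-1 motif (Tnfrsf9, Tnfrsf8 and Fas) and 6 the STAT motif. Genes with each motif are thus found among both the large and the small changes. A match describes letters only.

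Position in the genome was not used to choose the genes. In GRCm38.p6, 7 of the 10 lie on chromosome 4, Cd27 and Tnfrsf1a on chromosome 6 and Fas on chromosome 19. Tnfrsf4 (chr4:156013595-156016613) and Tnfrsf18 (chr4:156026322-156028894) are 9709 bases apart, and both rose strongly. Tnfrsf1b and Tnfrsf8 are also next to each other, 20262 bases apart, and rose 2.37-fold and 1.38-fold. The 16 nearest measured coding genes that are not among the 10 were chosen by position alone. Of these, 3 were higher, 7 lower and 6 did not pass the test, and their median log2 fold change was -0.30. Among all genes 60.1% passed the test, and the median was -0.17. Sdf4, a calcium-binding protein gene whose annotated end overlaps the start of Tnfrsf4, rose 2.56-fold (adjusted p = 2.93e-04). Ttll10, on the other side of Tnfrsf18, was 1.45-fold lower (adjusted p = 0.0115).

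Of the other 18 receptors of the family, none was higher, 6 were lower and 12 did not pass limma's test. Their median log2 fold change was -0.28. The share of lower genes was close to the 34.5% among all genes, so the count of 6 does not set these receptors apart. After median centring 3 of the 18 were higher and 2 lower, beside 7722 and 3350 of all 22180 genes. Relative to housekeeping genes all 18 were lower, as were 19605 of all 22180 genes, so that count does not set them apart either. At an unadjusted p under 0.05, 2 were higher and 7 lower, and the methods' t-test with adjustment gave 0 higher and 2 lower. The largest decrease was in Tnfrsf13c, the B-cell receptor for BAFF, at 8.48 and 8.51 in resting and 7.27 and 7.40 in proliferating Tregs, 2.23-fold lower (adjusted p = 2.74e-04). The 8 B-cell markers also were lower in these arrays, and their part in this change was not tested. Edar, a receptor of skin appendage development, was 2.01-fold lower (adjusted p = 0.00100), Tnfrsf19 was 1.60-fold lower (adjusted p = 0.00642) and Tnfrsf11b, the gene of the secreted decoy receptor osteoprotegerin, 1.50-fold lower (adjusted p = 0.00531). These lists were compared by their counts alone. Without resting replicate 1 only 3 of the 18 passed the test, Tnfrsf19 not among them (adjusted p = 0.0610), whereas 2 higher and 7 lower genes passed without proliferating replicate 1.

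**Figure D3:**
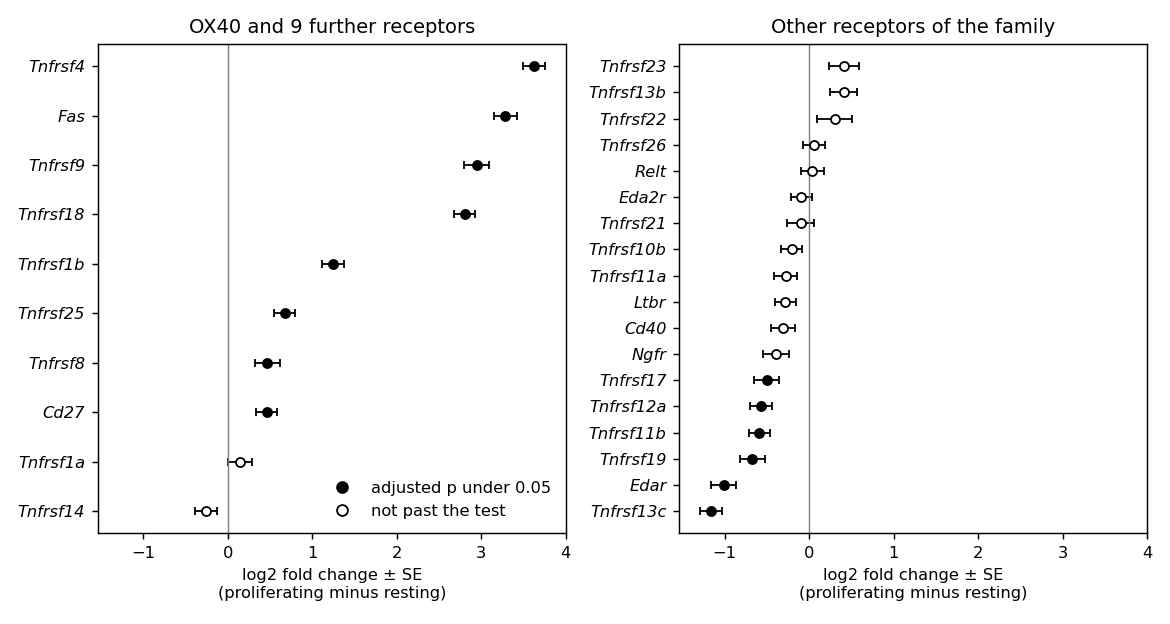
log2 fold change (proliferating minus resting, error bars are standard errors, 2 arrays per group) of the 10 receptor genes (left) and of the other 18 family members (right), filled where the adjusted p was under 0.05. The left panel reaches 3.62, while the right one runs from -1.16 to 0.41. Relative to housekeeping genes all 18 of the right panel were lower, as were 19605 of all 22180 genes.

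The receptors were set beside their ligands and partners, which T-cells themselves, dendritic cells or B-cells can make. Of 13 such genes, 7 were higher, 6 did not pass limma's test and none was lower, with a median log2 fold change of 0.60. At an unadjusted p under 0.05, 1 was lower, and 0 were lower by the adjusted t-test of the methods. Relative to housekeeping genes 3 of the 13 were higher and 9 lower, beside 922 and 19605 of all 22180 genes. With the values as deposited, 25.6% of all genes were higher and 34.5% lower, 60.1% in either direction. The 7 genes past the test were all higher, and their share of the 13 was not tested against this background. Tnfsf4, the gene of OX40L, was at 5.97 and 6.05 in resting and at 6.83 and 6.38 in proliferating Tregs. It rose 1.51-fold (adjusted p = 0.0187) with a wide spread in proliferating Tregs, stood at -0.82 relative to housekeeping genes, and did not pass without resting replicate 1, resting replicate 2 or proliferating replicate 1 (adjusted p = 0.125, 0.0902 and 0.0700). The receptor thus rose 12.3-fold and the ligand 1.51-fold in the same arrays. Tnfsf9, the ligand of 4-1BB, was at 6.51 and 6.53 against 7.58 and 7.49, a rise of 2.02-fold. Tnfsf18, the GITR ligand, had values of 5.37 and 5.10 against 4.95 and 4.74 and did not pass (log2 fold change -0.39, adjusted p = 0.0570), although it passed as lower without proliferating replicate 1 (adjusted p = 0.0322). Fasl, the ligand of Fas, was at 6.79 and 6.70 against 6.86 and 6.81 and did not pass either (adjusted p = 0.539), but passed as higher after median centring (log2 fold change 0.38, adjusted p = 0.0391).

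Other ligand genes changed more, and their changes were not tested against those of their receptors. Tnfsf8, the CD30 ligand, rose from 6.66 and 6.66 to 9.28 and 9.20, by 2.59 on the log2 scale (adjusted p = 1.28e-05), beside 0.47 for its receptor. Cd70, the CD27 ligand, was at 5.39 and 5.04 against 6.47 and 6.82 and rose 2.70-fold (adjusted p = 4.74e-04). Of the ligands of the TNF receptors, Lta rose 5.09-fold and Tnf 4.23-fold. Ltb, counted as a partner because it pairs with Lta, rose 1.97-fold. Tnfsf15, the ligand of DR3, and Tnfsf14, Btla and Cd160, which bind HVEM, did not pass the test (adjusted p = 0.148, 0.742, 0.150 and 0.382). Tnfsf15 was lower without proliferating replicate 1 (adjusted p = 0.00703), and Cd160 was higher without proliferating replicate 2 (adjusted p = 0.0204). The 3 ligand genes that stayed higher relative to the housekeeping genes were Tnfsf8, Lta and Tnf.

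**Figure D4:**
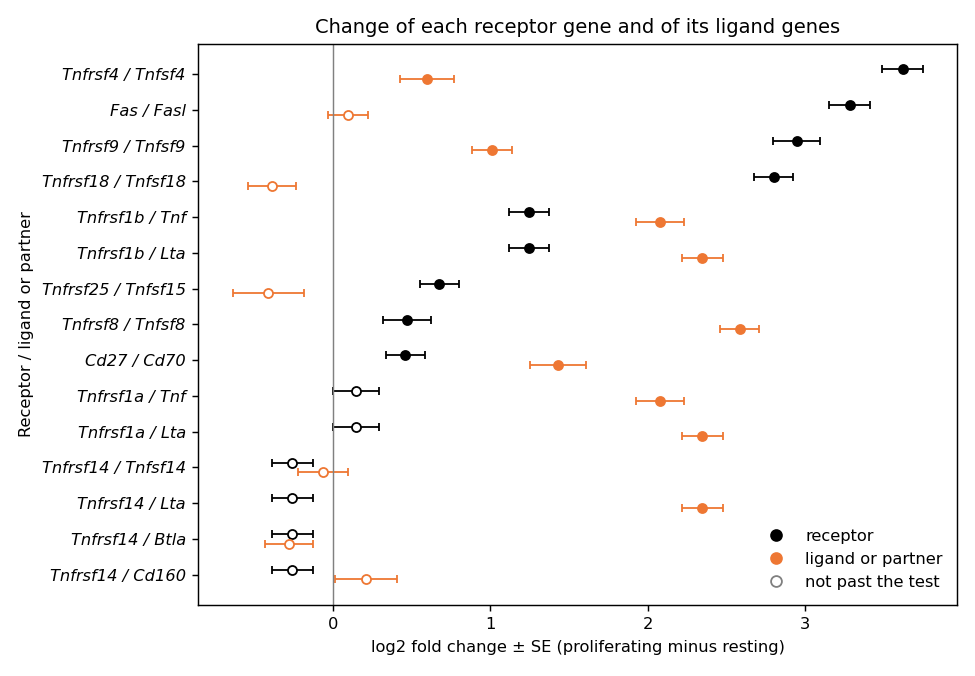
log2 fold change (proliferating minus resting, error bars are standard errors) of each receptor gene (black) and of a ligand or partner gene (orange), 1 pair per row, with open symbols not past the test. Tnfrsf4, Fas, Tnfrsf9 and Tnfrsf18 lie to the right of their ligands, and Tnfrsf8, Cd27, Tnfrsf1a and Tnfrsf1b to the left of theirs.

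Of 19 measured adaptors, ubiquitin ligases, kinases and caspase genes below the receptors, 12 were higher, 6 did not pass the test and 1 was lower. Their median log2 fold change was 0.61. Relative to the housekeeping genes 1 of the 19 was higher and 15 lower, beside 922 and 19605 of all 22180 genes. With the values as deposited, 25.6% of all genes were higher and 34.5% lower. Birc2, the gene of the ubiquitin ligase cIAP1 that TRAF2 recruits, rose 5.25-fold, from 6.02 and 6.19 to 8.53 and 8.47 (adjusted p = 1.63e-05). Casp8, the protease that Fas engages, rose 2.83-fold, Tank, a TRAF-binding regulator, 2.68-fold and Traf1, itself an NF-κB target, 2.36-fold (adjusted p = 6.94e-05, 1.16e-04 and 5.12e-04). The decrease was in Map3k14, the NIK kinase of the non-canonical NF-κB pathway, at 6.25 and 6.31 against 5.60 and 5.60, 1.60-fold lower (adjusted p = 0.00287). By the adjusted t-test of the methods, 5 of the 19 were higher and 1 lower.

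Once bound by its ligand, OX40 gathers an NF-κB-activating complex in which a TRAF adaptor meets IKK, the kinase PKC-θ and proteins also used by the antigen receptor, BCL10 and MALT1 among them. Of its genes, 6 were measured under 1 gene name and the other 3 were not analysed here. Traf2, Ikbkb and Ikbkg are also among the 19 adaptors. Prkcq, which encodes PKC-θ, was at 7.25 and 7.12 in resting and 8.41 and 8.55 in proliferating Tregs (adjusted p = 1.89e-04), and Bcl10 was at 7.77 and 8.01 against 8.85 and 8.85 (adjusted p = 9.73e-04). Both rose. The study had named Tnfrsf4, Prkcq and Bcl10 from these same arrays, so their direction here is no independent evidence. Apart from the arrays, it reported higher OX40 and Prkcq in proliferating Tregs by RT-qPCR, normalized to GAPDH. It also reported more OX40 protein on them by flow cytometry. Traf2 was at 7.77 and 7.64 against 7.73 and 7.71 (adjusted p = 0.904) and Ikbkb at 7.81 and 7.82 against 7.72 and 8.01 (adjusted p = 0.768), so that their groups overlapped. Malt1 and Ikbkg had log2 fold changes of -0.11 and -0.24 (adjusted p = 0.459 and 0.131). The median of the 6 was 0.0363, beside 3.62 for the receptor gene itself. After centring on housekeeping genes, a reference on which Hprt and Pgk1 weigh heavily, Prkcq and Bcl10 reversed, to -0.12 (not past the test) and -0.46. That reference is not the one of the RT-qPCR. Gapdh alone rose by 0.80 on the log2 scale in these arrays, less than Prkcq (1.30) and Bcl10 (0.96).

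**Figure D5:**
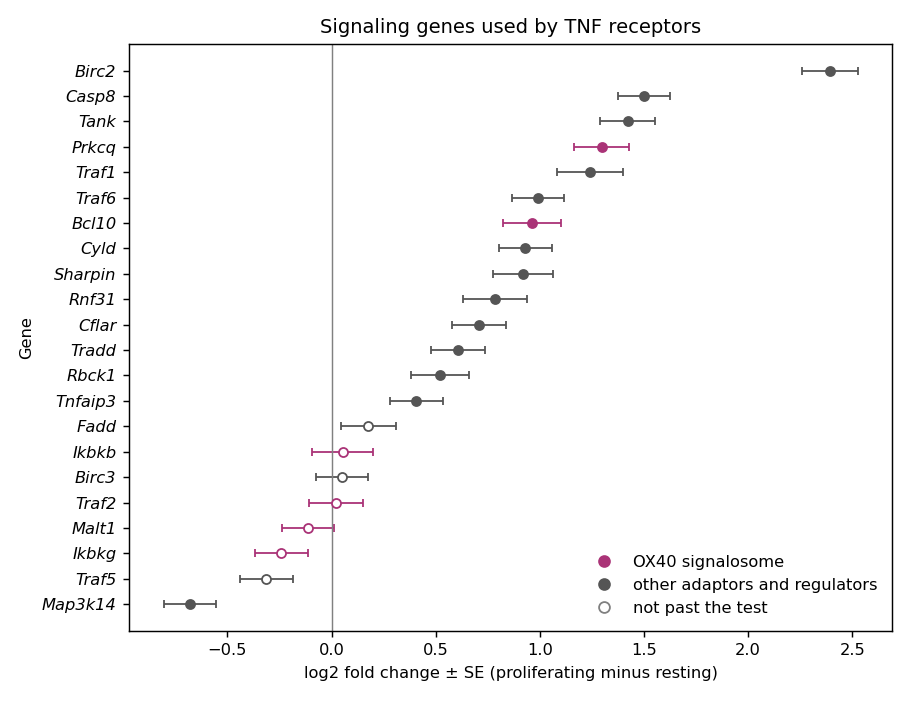
log2 fold change (proliferating minus resting, error bars are standard errors) of measured signaling genes used by TNF receptors, with the OX40 complex in purple, and open symbols where the adjusted p was 0.05 or more. The values run from -0.68 in Map3k14 to 2.39 in Birc2, and 4 of the 6 OX40 genes are open. Relative to housekeeping genes 15 of the 19 adaptors were lower, as were 19605 of all 22180 genes.

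The genes with the pattern nearest to that of Tnfrsf4 were found over the 4 arrays, each gene centred on its own mean, by the root mean square difference to it. Among 22179 genes the nearest were Rtp4, Ccl17, Gm12250, Retnla and Isg15, with differences of 0.0231 to 0.0552 on the log2 scale. Isg15 and Rtp4 are interferon-induced genes, Ccl17 encodes a chemokine of dendritic cells and Retnla a secreted protein of alternatively activated macrophages. Of the receptors, Fas ranked 35, Tnfrsf9 89 and Tnfrsf18 120 by this measure. With 4 arrays in 2 groups, this likeness is in effect a like step between the groups.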

How the data were processed

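Expression was measured on 4 arrays. According to the submitters' processing notes, the deposited log2 values were made by the authors with RMA (background correction, normalization to one distribution and median polish) in Partek 6.6. The methods instead name housekeeping gene normalization, R and another array design. The table states neither scale nor centring. The log2 scale was read from those notes and the range of values. The values as deposited did not share one distribution. Their medians were 6.27 in each resting array and 5.995 and 5.975 in the proliferating arrays. The SD across genes was 1.13 and 1.13 in resting and 1.43 and 1.44 in proliferating arrays. After quantile normalization 10308 genes passed limma's test, against 13335 with the values as deposited.

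Of 41345 probe sets, 23521 carried 1 gene name, of which 23328 were found by gene identifier in RefSeq (GRCm38.p6). The probe set of highest mean stood for a gene, with no filter on dim genes and no detection calls. Low values were not read as absence, and levels were not compared between genes. The comparison used limma 3.58.1 (lmFit, then eBayes) under R 4.3.3 (2 residual degrees of freedom and a prior of 5.48), adjusted over 22180 genes. The number of arrays limits the precision. The fit was tested on simulated data in which all genes shared the same spread and few were changed. That setting differs from these arrays, so it checks the code and not the calls made here.

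The genes named are the 10 receptors, the OX40 complex, all ligands, up to 4 genes per list and direction with the largest changes, the 5 nearest profiles, and Foxp3, Il2ra, Cd3e and Mki67. Sdf4 and Ttll10 were named for their position, and the ligands beyond 4 as partners of the receptors. The receptors and lists were chosen with earlier results of these data known. Alternatives were a trended and robust prior, removal of dim genes, all probe sets of a gene or their mean, quantile normalization, centring on the median, on Cd3 genes or on housekeeping genes, a replicate block, each array left out, the methods' t-test and a minimum log2 fold change of 1.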

Additional observations from a re-analysis of the deposited data

How the results depend on the processing

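Tnfrsf4, Fas, Tnfrsf9 and Tnfrsf18 kept their direction and their side of the threshold under all 16 alternatives, with log2 fold changes of 1.65 to 3.91, 1.31 to 3.57, 0.98 to 3.23 and 0.83 to 3.09. The replicate differences of the groups were hardly correlated across genes (0.0179), which cannot tell whether the replicate numbers pair the arrays. With a replicate block, 8 of the 10 receptors, 13 of 19 adaptors and 8 of the other 18 receptors (1 higher, 7 lower) passed limma's test. So did 9 of 13 ligands, 7 higher, with Tnfsf18 and Tnfsf15 lower at adjusted p = 0.0380 and 0.0350.

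Leaving out 1 array, so that the lone array of a group is assumed to vary like the other group, gave 6 to 8 of the 10 receptors, 3 to 9 of the other 18, 6 to 8 ligands, 11 to 13 adaptors, and 8 to 9 receptors that changed less than Tnfrsf4. Over all genes, 13335 passed the test in the main comparison, 8341 without resting replicate 1, 8607 with dim genes left out, 4312 by the adjusted t-test of the methods, 20527 and 21338 with centring on housekeeping and Cd3 genes, and 3777 with a log2 fold change of at least 1. That minimum left 5 receptors, 2 of the other 18 and 4 adaptors. The methods' t-test with adjustment left 2 of the other 18 and 6 adaptors.

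Of the other 18, 11 passed with a trended and robust prior (2 higher, 9 lower), 8 of 12 tested with dim genes left out (2 higher, 6 lower), 6 after quantile normalization (1 higher, 5 lower) and 5 after median centring (3 higher, 2 lower). With centring on housekeeping genes and on Cd3 genes, 9 and 10 of the 10 receptors passed (5 and 6 lower), 18 and 18 of the others, 12 and 12 ligands (9 and 10 lower) and 16 and 19 adaptors (15 and 18 lower). Of all 22180 genes, 922 and 329 were higher and 19605 and 21009 lower under these centrings, in that order. Both centrings shift all genes down by construction, and Hprt and Pgk1 weigh most on the housekeeping mean.

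Log2 fold changes reversed under both were, in that order, Tnfrsf1a -1.28 and -1.82, Tnfrsf1b -0.18 and -0.72, Tnfrsf8 -0.95 and -1.50, Tnfrsf25 -0.75 and -1.29, Cd27 -0.96 and -1.51, Traf2 -1.40 and -1.95, Bcl10 -0.46 and -1.01, Prkcq -0.12 and -0.67, Ikbkb -1.37 and -1.92, Tnfsf4 -0.82 and -1.37, Tnfsf9 -0.41 and -0.96, Ltb -0.45 and -0.99, Fasl -1.33 and -1.88, Cd160 -1.21 and -1.76, and Traf1 -0.18 and -0.73. With Cd3 centring alone, Cd70 reversed to -0.54, Casp8 to -0.47, Tank to -0.55, Foxp3 to -0.0939 and Cd3e to -0.49. Median centring reversed Tnfrsf14 to 0.0273, Malt1 to 0.17, Ikbkg to 0.0454, Tnfsf14 to 0.22 and Btla to 0.00484. Quantile normalization reversed Traf2 to -0.36, Ikbkb to -0.37 and Tnfsf14 to 0.21. Leaving out 1 array, Cd160 ranged from -0.0884 (without proliferating replicate 1) to 0.51, Ikbkb from -0.0941 (without proliferating replicate 2) to 0.20, Tnfsf14 from -0.24 to 0.0187 (without proliferating replicate 2) and 0.11 (without resting replicate 1), and Traf2 from -0.0479 (without resting replicate 2) to 0.0873. Beyond the shift, the cause was not tested. With arrays of 2 per group and no detection calls, changes near the background signal could not be bounded.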
